A study of Mus musculus with 11 samples.

Results

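Irf8 and 6 further regulators and effectors of the mononuclear phagocyte lineage were followed here: the transcription regulators Klf4, Bcl6, Id2 and Tcf4 and the class II antigen-loading genes H2-DMb2 and H2-Ob. These 7 genes were chosen by name from the 638 genes of the authors' deposited table, a progression-specific signature, so the values of that table chose them. Expression was measured in granulocyte-macrophage progenitors (GMPs), the marrow precursors of neutrophils and monocytes, which the submitters sorted from pools of mice as lineage-depleted cells without Sca-1, with c-Kit and CD34 and with high Fc receptor II/III. The 11 arrays comprised 4 of control mice, labelled MxCre–Ctnnb1(Ex3)fl/+, 3 of Irf8 knockout mice and 4 of Irf8 knockout mice with activated β-catenin, labelled Irf8 KO / b-cat(Ex3) and called doubly modified below. The study asked which genes accompany the passage of a chronic myeloid leukaemia-like disease, caused by loss of Irf8, into blast crisis once β-catenin is activated.

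All groups carried 1 Ctnnb1 allele with a floxed exon 3 per the series text, and in the doubly modified mice that exon had been excised, which yields a β-catenin that escapes degradation. Excision used a Cre driven by the interferon-inducible Mx promoter, which is active in many cell types and not in GMPs alone. The sample titles give no Cre status for the control and Irf8 knockout mice. The dash in the control label can be read as a hyphen or as absence of Cre. To switch the Cre on where present, every mouse, whatever its genotype, was injected with poly(I:C), an RNA mimic that triggers interferon. The dose was 400 µg on days 0, 3 and 5. Cells were collected 10 to 14 days after the third injection. Every group, controls included, was therefore exposed to an inducer of interferon, a pathway in which IRF factors act. Mice with activated β-catenin and intact Irf8, which the series text describes, are not analysed here. No source used here states the mice's age or strain background.

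IRF8 is a transcription factor of the interferon regulatory factor family that steers myeloid progenitors towards monocytes and dendritic cells and away from neutrophils. It acts mostly together with partners such as PU.1 on composite DNA sites, and mice that lack it accumulate granulocytes. KLF4 lies downstream of IRF8 in monocyte development, whereas TCF4 (also called E2-2) and ID2 oppose each other in the choice between plasmacytoid and conventional dendritic cells. H2-DM and H2-O govern peptide loading on class II molecules, the one catalysing peptide exchange and the other restraining it.

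Each row of the authors' deposited table could be tied to 1 probe set of the value table, which carries no gene names. The linear fold of the authors' deposited table equalled the difference between the doubly modified and the control means of 1 probe set in all 638 rows, within 2.04e-09 on the log2 scale. No other probe set came closer than 8.7e-07 to any of the 638 values, and 0 rows matched, at a tolerance of 1e-08, with the sign turned, for Irf8 knockout minus control or for doubly modified minus Irf8 knockout. Positive values of the table thus mean higher expression in the doubly modified GMPs than in the controls. Each of the 7 genes has 1 tied probe set, and other probe sets of the same genes are not identified by this tie. Log2 values were compared between arrays for the same probe set and not between genes.

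The contrast of doubly modified with control GMPs chose the 7 genes, and the 2 single steps share arrays with it. The Irf8 knockout mean also lay on the same side of the control mean as the doubly modified mean in 634 of the 638 rows (99.4%), against 97.1% of 2783 other probe sets with at least as large a difference. The doubly modified mean lay beyond the Irf8 knockout mean in 95.9% of the rows and in 84.2% of those other probe sets. Whether the order of the groups entered the authors' selection is not stated. The members' values are therefore given as a description in all 3 comparisons, with standard errors (SE) from the fit over all probe sets and without p-values.

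Over the whole table of 45037 probe sets, limma called 789 (1.75%) between Irf8 knockout and control, 2761 (6.13%) between doubly modified and control, and 2 (0.00444%) between doubly modified and Irf8 knockout at a Benjamini-Hochberg adjusted p under 0.05. Unadjusted p-values under 0.05 numbered 5821, 8869 and 3182 in the same order. Control replicate 4 and doubly modified replicate 2 stood apart from their groups over the brighter probe sets. Their correlations to the other arrays of their group were 0.960 to 0.974 and 0.939 to 0.973. Doubly modified replicate 3 was nearly as far from its group (0.939 to 0.975), and control replicate 1 shared the lowest value of 0.960. Leaving out control replicate 4 and doubly modified replicate 2 gave 1561 calls between Irf8 knockout and control and 3856 between doubly modified and control. It gave 11 between doubly modified and Irf8 knockout. Doubly modified replicates 1 and 3 each correlated more highly with an Irf8 knockout array (0.981 and 0.978) than with any array of their own group (0.977 and 0.975). None of the 5 genes that mark the sorting gate (Kit, Cd34, Fcgr3, Fcgr2b and Ly6a) has a named probe set here, so the GMP label could not be checked. In sorted bulk cells, fewer cells of a type and less RNA per cell cannot be told apart.

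Irf8, the targeted gene, was lower in both knockout groups than in the controls, but its probe set was far from silent. The control arrays gave log2 values of 9.38, 9.46, 9.78 and 9.23 for replicates 1 to 4. The Irf8 knockout arrays gave 8.60, 7.90 and 8.89, and the doubly modified arrays 8.35, 8.63, 7.51 and 7.77. All 7 arrays labelled as knockout lay below all 4 controls, while the knockout and doubly modified arrays overlapped.

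The mean Irf8 value was 9.46 ± 0.23 (SD, n = 4) in controls, 8.46 ± 0.51 (SD, n = 3) in Irf8 knockout and 8.06 ± 0.51 (SD, n = 4) in doubly modified GMPs. Irf8 knockout GMPs thus stood at −0.998 (SE 0.28) against controls, doubly modified GMPs at −0.40 (SE 0.28) against Irf8 knockout and at −1.40 (SE 0.26) against controls. The signal still exceeded that of 89.7 to 95% of all probe sets on the Irf8 knockout arrays and 87.1 to 93.6% on the doubly modified arrays, compared with 96.0 to 97.5% on the controls. No source used here says where the probes lie relative to the deleted part of Irf8. The value therefore does not check the genotype labels.

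**Figure D1:**
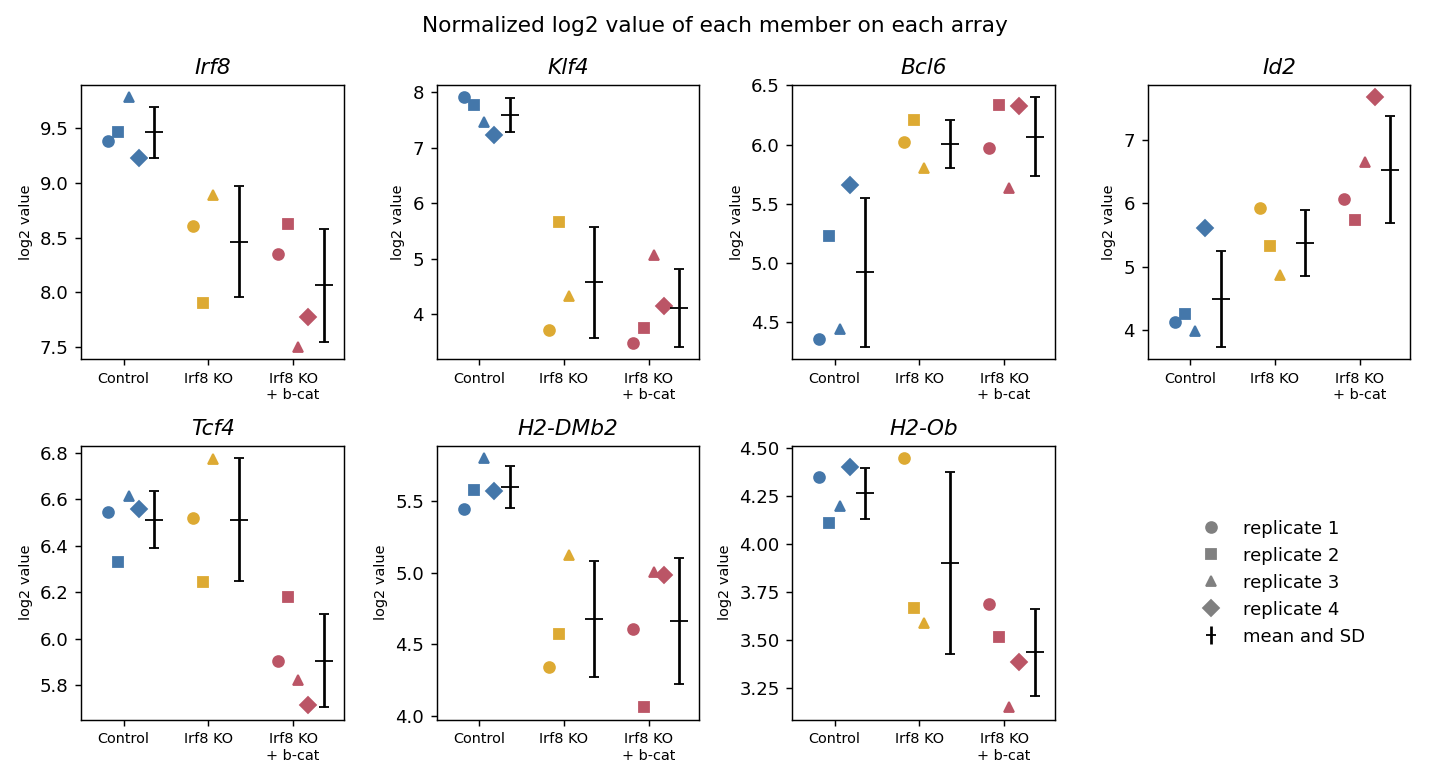
Normalized log2 value (vertical axes, 1 scale per panel) of the probe set tied to each of the 7 genes on each of the 11 arrays, by group (horizontal axis). Points are arrays with replicate numbers as symbols, and black marks give the mean and SD. In Irf8, Klf4 and H2-DMb2 every array of both knockout groups lies below every control, whereas Tcf4 is lower in the doubly modified arrays alone.

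Klf4, a transcription factor needed for monocyte differentiation, showed the largest difference of the 7 genes, and most of it was already present without β-catenin activation. The controls stood at 7.91, 7.78, 7.46 and 7.22, and the Irf8 knockout arrays at 3.72, 5.67 and 4.34. The doubly modified arrays gave 3.48, 3.76, 5.08 and 4.16. Both knockout groups lay wholly below the controls, and they overlapped each other over most of their ranges.

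Means for Klf4 were 7.59 ± 0.31 (SD, n = 4), 4.58 ± 0.99 (SD, n = 3) and 4.12 ± 0.70 (SD, n = 4). The difference from controls was −3.01 (SE 0.43), an 8.07-fold lower value, in Irf8 knockout GMPs, and −3.47 (SE 0.40) in doubly modified GMPs. Between the latter groups it was −0.46 (SE 0.43), and it turned to 0.09 when Irf8 knockout replicate 2, the highest of its group, was left out. By the size of the difference between Irf8 knockout and control, Klf4 ranked 18 among all 45037 probe sets.

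Within both knockout groups the array with the lowest Irf8 value had the highest Klf4 value. Irf8 knockout replicate 2 combined 7.90 for Irf8 with 5.67 for Klf4. Doubly modified replicate 3 combined 7.51 for Irf8 with 5.08 for Klf4. The controls went the other way, with the lowest Irf8 (9.23) and the lowest Klf4 (7.22) both in replicate 4. These are single arrays of small groups, and a relation between the 2 genes was not tested.

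Bcl6, a transcriptional repressor that acts in lymphocytes, macrophages and dendritic cells, was higher in both knockout groups. Controls gave 4.35, 5.22, 4.44 and 5.66, Irf8 knockout arrays 6.02, 6.21 and 5.80, and doubly modified arrays 5.97, 6.34, 5.64 and 6.32. Every Irf8 knockout array exceeded every control, but control replicate 4 reached 5.66, just above the lowest doubly modified array at 5.64. Bcl6 was therefore the only one of the 7 genes whose control and doubly modified ranges overlapped.

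The Bcl6 means were 4.92 ± 0.63 (SD, n = 4) in controls, 6.01 ± 0.20 (SD, n = 3) in Irf8 knockout and 6.07 ± 0.33 (SD, n = 4) in doubly modified GMPs. Irf8 knockout exceeded control by 1.09 (SE 0.29), and doubly modified differed from Irf8 knockout by 0.06 (SE 0.29). Without control replicate 4 and doubly modified replicate 2, these differences were 1.34 and −0.03.

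Id2, which inhibits E proteins such as TCF4 by dimerising with them, was higher at each genotype step. Controls stood at 4.13, 4.25, 3.98 and 5.62, and Irf8 knockout arrays at 5.92, 5.33 and 4.87. Doubly modified arrays gave 6.07, 5.74, 6.65 and 7.67. All doubly modified arrays lay above all controls, the lowest of them by little because control replicate 4 was far above the other controls. The Irf8 knockout arrays overlapped both other groups.

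Mean Id2 values were 4.50 ± 0.76 (SD, n = 4), 5.37 ± 0.52 (SD, n = 3) and 6.53 ± 0.85 (SD, n = 4) in the same order. The steps were of like size, 0.88 (SE 0.47) from control to Irf8 knockout and 1.16 (SE 0.47) from Irf8 knockout to doubly modified, which together gave 2.04 (SE 0.44). Leaving out single arrays moved the second step between 0.78, without doubly modified replicate 4, and 1.43, without Irf8 knockout replicate 1.

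Tcf4, the E protein that specifies plasmacytoid dendritic cells, had like values in controls and Irf8 knockout GMPs and lower values in doubly modified GMPs. Controls gave 6.54, 6.33, 6.62 and 6.56, and Irf8 knockout arrays 6.52, 6.25 and 6.77. Doubly modified arrays gave 5.90, 6.18, 5.82 and 5.71. The control and Irf8 knockout ranges overlapped, and all 4 doubly modified arrays lay below both, the highest at 6.18 against the lowest Irf8 knockout array at 6.25.

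The mean Tcf4 value was 6.51 in controls (SD 0.12, n = 4) and 6.51 in Irf8 knockout GMPs (SD 0.26, n = 3), against 5.90 ± 0.20 (SD, n = 4) in doubly modified GMPs. Against Irf8 knockout the doubly modified difference was −0.61 (SE 0.15), a 1.52-fold lower value. With single arrays left out it stayed between −0.74 and −0.48. The gene product is distinct from TCF7L2, the Wnt pathway factor that is often called TCF4 too, and the Entrez identifier in the authors' deposited table is that of the E protein.

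**Figure D2:**
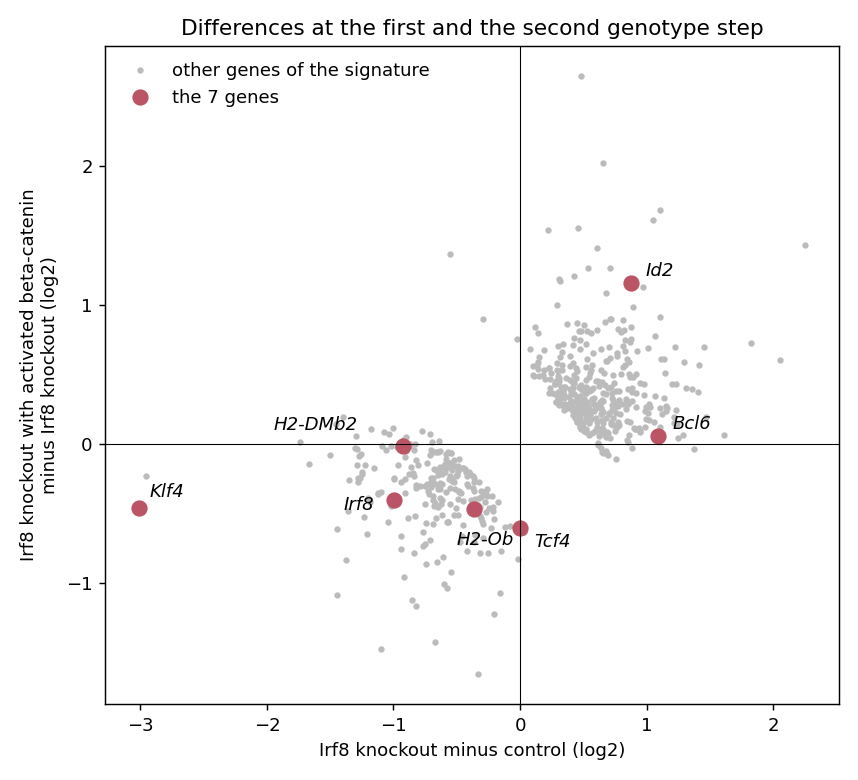
Each point is 1 of the 638 genes of the signature, placed by the log2 difference between Irf8 knockout and control (horizontal axis) and between doubly modified and Irf8 knockout (vertical axis). The 7 genes are red and labelled. Tcf4 lies at −0.0004 on the horizontal axis, Klf4 far to the left at −3.01, and Bcl6 and H2-DMb2 close to 0 on the vertical axis at 0.06 and −0.02.

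H2-DMb2, a β chain of the H2-DM peptide exchange factor, was lower in both knockout groups than in controls. Controls stood at 5.45, 5.58, 5.80 and 5.57, Irf8 knockout arrays at 4.34, 4.57 and 5.13, and doubly modified arrays at 4.61, 4.06, 5.00 and 4.98. No array of either knockout group reached the lowest control, and the knockout groups overlapped.

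Means for H2-DMb2 were 5.60 ± 0.15 (SD, n = 4), 4.68 ± 0.40 (SD, n = 3) and 4.66 ± 0.44 (SD, n = 4). Irf8 knockout GMPs stood at −0.92 (SE 0.23) against controls and doubly modified GMPs at −0.02 (SE 0.23) against Irf8 knockout. The neighbouring H2-DMb1 gene encodes a very similar chain, and how far the probes tell them apart was not determined.

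H2-Ob, the β chain of H2-O, gave a dim signal. Controls stood at 4.35, 4.11, 4.20 and 4.40, Irf8 knockout arrays at 4.45, 3.67 and 3.59, and doubly modified arrays at 3.69, 3.52, 3.15 and 3.39. The doubly modified arrays lay below all controls, while Irf8 knockout replicate 1 was as high as the controls and the other two were as low as the doubly modified arrays. These values exceeded only 34.5 to 56.0% of all probe sets on their arrays, and no detection calls were used here.

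Mean H2-Ob values were 4.26 ± 0.13 (SD, n = 4), 3.90 ± 0.47 (SD, n = 3) and 3.44 ± 0.23 (SD, n = 4). The steps were −0.36 (SE 0.20) and −0.47 (SE 0.20). How the difference fell between them depended on single Irf8 knockout arrays. The first and second step were −0.63 and −0.19 without replicate 1, −0.24 and −0.58 without replicate 2, and −0.21 and −0.62 without replicate 3.

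Promoter sequences are shown for 4 of the genes. Of these, 3 hold a CCAAT box, an element of class II promoters, and 1 holds the only match to a composite ETS and IRF site. The Id2 promoter also holds CCAAT boxes but is not printed. The RefSeq windows (GRCm38.p6) run from 250 bases before to 50 after a transcript start. Those of 6 of the 7 genes were searched, and Tcf4 was left out of the search. For each of the 4, the 200 bases before the start are printed 5′ to 3′ on the gene's strand, with motif matches in capitals. They lie at chr17:34145049-34145248 (plus strand) for H2-DMb2, chr17:34238705-34238904 (plus strand) for H2-Ob, chr8:120736158-120736357 (plus strand) for Irf8 and chr16:23981284-23981483 (minus strand) for the downstream one of 2 Bcl6 windows.
H2-DMb2: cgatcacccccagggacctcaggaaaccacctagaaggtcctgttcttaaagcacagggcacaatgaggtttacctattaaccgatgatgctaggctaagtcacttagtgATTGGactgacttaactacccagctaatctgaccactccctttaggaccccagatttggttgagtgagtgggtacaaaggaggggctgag
H2-Ob: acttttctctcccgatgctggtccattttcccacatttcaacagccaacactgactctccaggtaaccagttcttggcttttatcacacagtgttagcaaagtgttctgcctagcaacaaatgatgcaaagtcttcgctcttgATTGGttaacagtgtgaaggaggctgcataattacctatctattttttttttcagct
Irf8: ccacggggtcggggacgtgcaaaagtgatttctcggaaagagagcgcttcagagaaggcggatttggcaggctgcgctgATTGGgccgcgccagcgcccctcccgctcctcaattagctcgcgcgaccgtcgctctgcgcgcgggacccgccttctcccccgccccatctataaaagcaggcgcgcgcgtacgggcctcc
Bcl6: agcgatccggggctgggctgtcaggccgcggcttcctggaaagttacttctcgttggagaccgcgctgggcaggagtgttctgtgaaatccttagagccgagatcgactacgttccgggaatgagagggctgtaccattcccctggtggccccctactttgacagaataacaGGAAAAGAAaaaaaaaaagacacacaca

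On both strands of the 8 windows of these 6 genes, the CCAAT box (ATTGG or its reverse) was present in 4, namely those of H2-Ob (first base at position −57), H2-DMb2 (−90), Id2 (3 matches, from −159) and 1 of 2 Irf8 windows (−121). The same 5 letters are found in 37.4% of all 32851 RefSeq windows of this length. The composite ETS and IRF pattern GGAANNGAA matched in 1 window, that of Bcl6 printed above (first base at −28), against 8.24% of all windows. The IRF pattern GAAANNGAA, found in 8.56% of all windows, and the TCF/LEF pattern CTTTGAT, found in 3.73%, matched in 0 of the 8. GAAANNGAA and GGAANNGAA share most of their letters and can overlap. A match or its absence in these windows is a description of the letters and says nothing of binding.

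Set side by side, the 7 genes were counted by whether the ranges of their arrays overlapped in each comparison. Between Irf8 knockout and control, 3 genes (Irf8, Klf4 and H2-DMb2) had ranges wholly below the controls, against 7.01% of all probe sets, and 1 (Bcl6) wholly above, against 6.92%. Between doubly modified and Irf8 knockout 1 gene, Tcf4, lay wholly below, against 3.07% of all probe sets, and 0 wholly above, against 3.67%. Between doubly modified and control, the contrast that chose the genes, 5 lay wholly below (5.24% of all probe sets) and 1, Id2, wholly above (6.81%). Because the genes were chosen on these arrays, nothing is read from these counts.

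The share of the whole difference that was already present in Irf8 knockout GMPs was 98.3% for H2-DMb2, 95% for Bcl6, 86.8% for Klf4 and 71.4% for Irf8. It was 43.7% for H2-Ob, 43.1% for Id2 and 0.0682% for Tcf4. Over the 638 genes of the signature the median share was 64.5%, with the middle 50% of genes between 48.3 and 78.3%. From the lowest share upwards Tcf4 stood at place 5 and H2-DMb2 at place 606 of 638. Shares over the whole signature ran from −67.4 to 117%. The SE of the first step alone amounted to 12.5% of the whole difference for Klf4, 20.0% for Irf8 and between 23.1 and 25.3% for the 5 other genes.

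**Figure D3:**
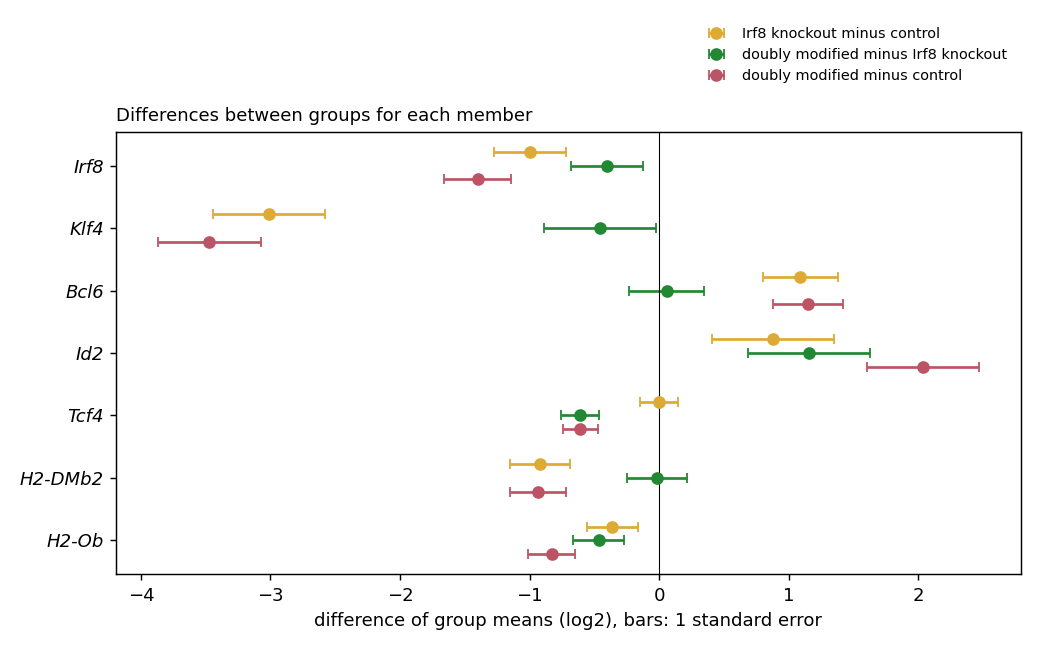
Log2 difference of group means (horizontal axis) for each of the 7 genes, with bars of 1 SE. Yellow points give Irf8 knockout minus control, green points doubly modified minus Irf8 knockout and red points doubly modified minus control. The red and yellow points nearly coincide for Bcl6 and H2-DMb2, whereas the red and green points nearly coincide for Tcf4.

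Within the signature the 7 genes ranged from the extreme to the edge. By absolute size in the authors' deposited table, Klf4 ranked 2, Id2 17, Irf8 112, Bcl6 189, H2-DMb2 304, H2-Ob 389 and Tcf4 613 of 638. The smallest absolute difference of the authors' deposited table was 0.586, just under the 0.61 of Tcf4. Its largest p-value was 0.0016, close to the 0.00149 that the authors' deposited table gives for H2-Ob. The genes just outside these limits are not named here.

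Other regulators of the lineage were looked up in lists, and only genes of the signature could be named. The signature holds 1.42% of all probe sets, but a gene can have several, so the share of genes that could have been listed is not known and the list counts are a description. Of 24 mononuclear phagocyte transcription factors besides the 7 genes, 2 (8.33%) were in the signature, 1 higher and 1 lower in doubly modified GMPs than in controls. Bcl11a, which plasmacytoid dendritic cells require, was 6.77 ± 0.27 (SD, n = 4) in controls, 7.45 ± 0.22 (SD, n = 3) in Irf8 knockout and 7.5 ± 0.14 (SD, n = 4) in doubly modified GMPs. Mef2c, a factor of the lymphoid and monocytic fates, was 6.42 ± 0.14 (SD, n = 4), 5.82 ± 0.09 (SD, n = 3) and 5.62 ± 0.34 (SD, n = 4). For both, the knockout groups overlapped each other and not the controls.

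None of the 8 other IRF genes, the 9 granulocyte transcription factors, the 5 E and Id proteins or the 23 other class II presentation genes was in the signature, and their probe sets are not named here. Whether H2-DMb2 and H2-Ob changed together with the class II molecules themselves was therefore not determined. A list gene outside the signature may have changed, since the signature holds 638 of the probe sets.

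Of 22 genes reported as targets of IRF8 elsewhere, 4 (18.2%) were in the signature, 2 higher and 2 lower. Bcl2, the survival factor whose transcription IRF8 represses in myeloid cells, was lower rather than higher: 8.0 ± 0.16 (SD, n = 4) in controls, 6.90 ± 0.32 (SD, n = 3) in Irf8 knockout and 6.55 ± 0.36 (SD, n = 4) in doubly modified GMPs. Ctsc, a lysosomal protease that activates granule proteases, stood at 5.65 ± 0.43 (SD, n = 4), 4.66 ± 0.21 (SD, n = 3) and 4.41 ± 0.67 (SD, n = 4). In both genes every Irf8 knockout array lay below every control.

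Dab2, a clathrin adaptor, and Spp1, which encodes the cytokine osteopontin, were the higher ones. Dab2 was 4.6 ± 0.28 (SD, n = 4), 5.61 ± 0.18 (SD, n = 3) and 6.30 ± 0.20 (SD, n = 4), and its 3 groups did not overlap. Spp1 was 4.16 ± 0.40 (SD, n = 4), 4.69 ± 0.55 (SD, n = 3) and 5.96 ± 0.41 (SD, n = 4), with the doubly modified arrays above all others. The second step was thus 0.69 (SE 0.16) for Dab2 and 1.27 (SE 0.29) for Spp1.

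The pattern of Irf8 over the arrays was compared with that of the other genes of the signature by the root mean square (RMS) difference of log2 values centred on their own mean over the 11 arrays. The closest genes were Bcl2 (RMS difference 0.20), Serpinf1, which encodes a secreted serpin (0.21), and Ass1, argininosuccinate synthase (0.26). For Klf4 the closest was Car1, a carbonic anhydrase of erythroid cells (0.76), followed by the RIKEN transcript 9530006C21Rik (0.89). Like Irf8, Bcl2 was lowest within the Irf8 knockout group in replicate 2 and within the doubly modified group in replicate 3. Among controls the order differed, with Bcl2 highest in replicate 1 (8.23) and Irf8 in replicate 3 (9.78). The match for Klf4 was looser.

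For Id2 the closest gene was the actin-severing protein gelsolin (Gsn, 0.27), and Rflnb, a filamin-binding protein, was also among the 3 closest (0.37). Gsn was 4.42 ± 0.93 (SD, n = 4), 5.39 ± 0.56 (SD, n = 3) and 6.53 ± 0.58 (SD, n = 4). All these genes were taken from a table selected on the same arrays, so likeness to some of them follows from the selection.

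**Figure D4:**
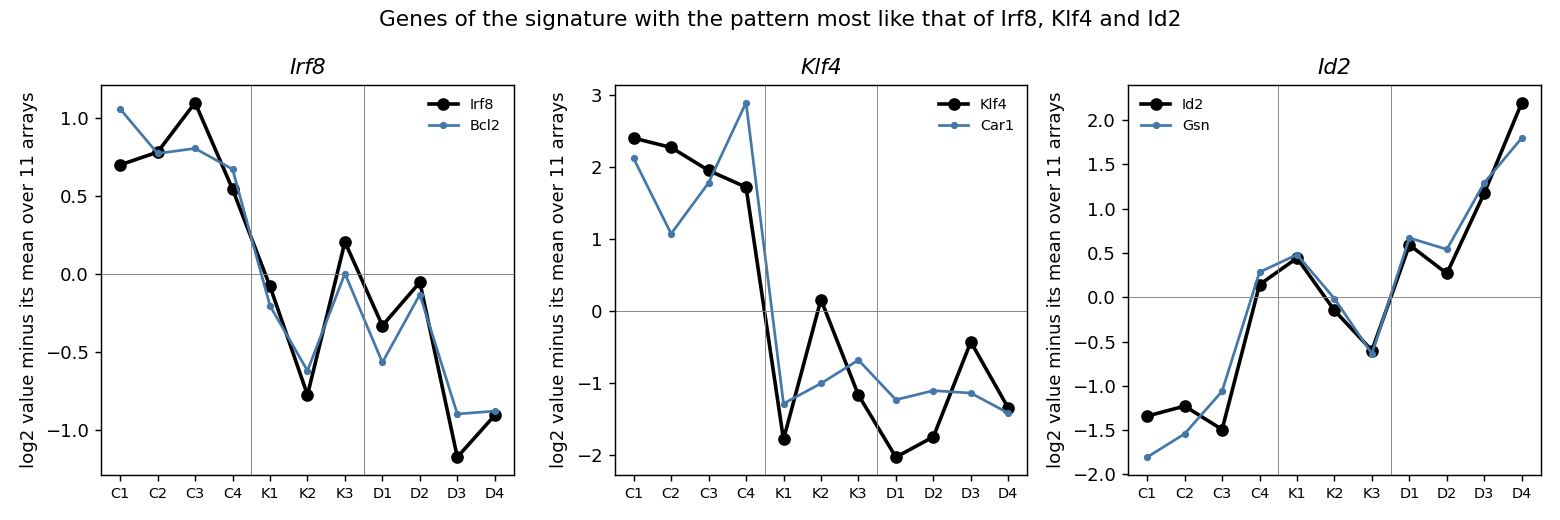
Log2 value minus its mean over the 11 arrays (vertical axes) for Irf8, Klf4 and Id2 in black and for the most similar gene of the signature in blue (Bcl2, Car1 and Gsn), by array (C control, K Irf8 knockout, D doubly modified, each with its replicate number). The blue line keeps closest to black for Irf8 and Id2, with RMS differences of 0.20 and 0.27, and less so for Klf4, at 0.76.

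Markers of differentiated cells could be followed only where the signature lists them, so that they differ between doubly modified and control arrays follows from the selection. Of 18 monocyte markers 2 were listed, the lipopolysaccharide co-receptor Cd14 and Adgre1 (F4/80), and their mean log2 value was 3.84 to 4.57 in controls, 4.57 to 5.32 in Irf8 knockout and 5.45 to 6.02 in doubly modified arrays. The control and Irf8 knockout ranges of each overlapped. Within the knockout groups Cd14 was highest in Irf8 knockout replicate 2 (6.46) and doubly modified replicate 3 (7.65), the arrays with the highest Klf4 of their groups. Adgre1 did not follow this order. It was highest in Irf8 knockout replicate 1 (4.85) and doubly modified replicate 1 (5.10), and lowest of its group in doubly modified replicate 3 (4.39). Of 17 neutrophil markers 2, Cd177 and the receptor Csf3r, were listed, with a mean log2 value of 5.04 to 6.77 in controls, 6.71 to 7.40 in Irf8 knockout and 7.28 to 8.49 in doubly modified arrays.

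The listed markers of 3 other lineages are those that the selection found lower. The mean of Gata1 and Car1, 2 of 10 erythroid and megakaryocyte markers, was 5.00 to 5.84 in controls, 3.19 to 3.46 in Irf8 knockout and 3.02 to 3.29 in doubly modified arrays. That of Mcpt8 and Hdc, 2 of 9 eosinophil, basophil and mast cell markers, was 7.47 to 8.28, 6.92 to 7.33 and 6.28 to 6.98. Thy1, 1 of 8 T and NK cell markers, lay between 3.04 and 4.48, between 2.81 and 2.91 and between 2.18 and 2.77. None of the 15 dendritic cell markers and none of the 10 B cell markers was in the signature, and their levels were not determined. The part of the cell makeup in the values of the 7 genes was not tested.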

How the data were processed

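The 7 genes, the gene lists and the tests were chosen with earlier results of these data known. The authors deposited normalized log2 values of 45037 probe sets on 11 arrays, and a signature of 638 genes with p-values, linear folds and log2 folds. Per the file headers the values carry no gene names, and their normalization, genome build, the test behind the p-values and scan dates are not stated. Log2 is the base that the deposited linear fold bears out. Total RNA was amplified from small inputs into cDNA, per the labels' protocols.

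Each signature row was tied to the probe set whose difference of group means equals its fold (tolerance 1e-08 log2), and named by Entrez identifier through RefSeq (GRCm38.p6, 621 of 638 matched). The design had assumed a gene name for every probe set, so list counts cover the signature's genes, and means over a gene's probe sets were not run. limma 3.58.1 in R 4.3.3 fitted 3 groups over all probe sets. It was tested on simulated data with known changes. Arrays are described as independent pools, so p-values measure the spread between pools. The number of arrays limits the precision. Text names all 7 genes, list genes in the signature, and for Irf8, Klf4 and Id2 the 3 genes of most similar pattern, 2 of which are not reported here. Same-numbered arrays of different groups correlated weakly in their deviations (−0.312 to 0.216). A replicate block nevertheless lowered the SE of the first step for some of the 7 genes, so a pairing was not settled. The main fit used no block.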

Additional observations from a re-analysis of the deposited data

Results flagged for a closer look

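Among the 7 genes and the list genes of the signature, 44 groups of 4 arrays were examined for a single array far from the others, and 3 had one (its gap to the next array, over the group's range, above Dixon's critical value). Chance flags about 1 in 20 such groups. Id2 was 5.62 in control replicate 4 against 3.98 to 4.25 in the other controls. Cd177 was 6.82 in the same array against 3.73 to 4.17. Ctsc was 5.42 in doubly modified replicate 3 against 4.05 to 4.10 in the other doubly modified arrays. Groups of 3 arrays were not examined. Without control replicate 4, Irf8 knockout minus control for Id2 was 1.25 on the log2 scale in place of 0.88.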

How the results depend on the processing

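No value of the 7 genes moved by more than the spread between replicates (1 SD) in 378 recomputations. These used an intensity trend, quantile normalization, dim probe sets left out, 2 groups only, array weights, the replicate block and single arrays left out. Leaving out both arrays that stood apart was added after seeing the data. Many of these differences could not move. The trend, the dim filter and the 2-group fits kept the group means, as did leaving out an array of the group not compared. Leaving out 1 array of a group of 4 cannot move its mean by more than the 1 SD used here. For those runs the outcome was fixed beforehand and says nothing of stability. Differences near 0 changed sign: with single arrays left out, doubly modified minus Irf8 knockout ran from −0.88 to 0.09 for Klf4, −0.05 to 0.20 for Bcl6 and −0.19 to 0.21 for H2-DMb2, and Irf8 knockout minus control from −0.13 to 0.13 for Tcf4. Irf8 itself ran from −0.68 to −0.19 between the knockout groups and from −1.59 to −1.21 against controls, and Id2 from 0.60 to 1.25 at the first step. Of the 7 genes all passed the filter on dim probe sets. H2-Ob did so through 5 of 11 arrays, namely all controls and Irf8 knockout replicate 1. It thus passed only through the arrays where it was high, and no doubly modified array counted towards it.

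Called probe sets depended more on the setting. Array weights gave 1658 between Irf8 knockout and control and 4395 between doubly modified and control. With both arrays that stood apart left out they were 1561 and 11 for the first and second step. Fitting the 2 groups alone gave 0 between doubly modified and Irf8 knockout (limma, 2623 at an unadjusted p under 0.05). Leaving out single arrays gave 347 to 1039 for the first step (423, 441 and 477 without control replicates 1, 2 and 3, and 347 and 444 without Irf8 knockout replicates 1 and 2), 1 to 10 for the second (10 without doubly modified replicate 2, and 1 without any of 9 other arrays) and 1477 to 3673 for both steps together (1477, 1609 and 1608 without control replicates 1, 2 and 3). Fewer arrays in a fit lower its power, and the cause of the rest was not tested. The replicate block gave 658, 2 and 2443, and changed no count by over 1.5 times. Over the brighter probe sets, same-numbered arrays correlated at −0.312 to 0.216, with 3 of 10 pairs above 0.1. Of 11 arrays, 1 was closest to its own number. With the block, the SE of the first step fell from 0.29 to 0.17 for Bcl6 and from 0.47 to 0.27 for Id2. It also fell for H2-DMb2 and H2-Ob, and it rose for Irf8, Klf4 and Tcf4. Whether equal numbers mark a pairing was therefore not settled. Other array normalizations and background corrections from scanner files were not run, nor were list counts under other settings, since unlisted probe sets have no names here. No detection flags were used, so the dim values of H2-Ob and of Klf4 in the knockout groups may lie near background. The same holds for other named genes. Among them, Thy1 went down to 2.18, Car1 to 2.58 and Gata1 to 3.14 in doubly modified arrays, and Adgre1 to 2.92 in controls.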

Other observations

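Over all probe sets, the pattern closest to that of Irf8 belonged to a probe set without a gene name here (RMS difference 0.13), with means of 9.06 in controls, 7.85 in Irf8 knockout and 7.44 in doubly modified GMPs. For Klf4 it was another unnamed one (0.49), with 6.74, 4.31 and 4.13. Further probe sets of the 7 genes have no name here, so both may belong to Irf8 and Klf4 themselves. For Id2 the closest of all probe sets was that of Gsn.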
